A study of Canis lupus familiaris with 13 samples.

Results

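ARID5B, ARID5A and PHF2 were followed in skeletal muscle of the dog as 3 genes of a deposited table of 30951. They were chosen by symbol, and each symbol had 1 row in the table: ARID5B (ENSCAFG00000012991), ARID5A (ENSCAFG00000006546) and PHF2 (ENSCAFG00000002253). ARID5B drew the choice because it had already been seen to be lower in insulin than in basal libraries, so all values of the 3 genes in that contrast are a description without a test. Muscle RNA came from biopsies of the biceps femoris, a thigh muscle, taken from 4 wild-type dogs aged 9 to 10 months. Under insulin stimulation all 4 dogs gave a sample 1 and a sample 2, and dogs 1 and 2 also gave a sample 3, which makes 10 libraries. At basal insulin there were 3 libraries, sample 0 of dogs 2, 3 and 4. The labels state neither the insulin dose nor what the sample numbers stand for, and dog 1 had no basal library. Every basal library is a sample 0 and every insulin library a sample 1, 2 or 3. A difference between insulin and basal therefore cannot be told apart from one between sample numbers.

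ARID5B and ARID5A are paralogous proteins named for the AT-rich interaction domain, a fold that binds DNA. PHF2 is a Jumonji-type histone demethylase that removes methyl groups from lysine 9 of histone H3 and has a finger domain that reads histone tails. In work on mammalian liver cells, protein kinase A phosphorylates PHF2, and the modified enzyme joins ARID5B, which brings it to the promoters of target genes. ARID5A is also known as an RNA-binding protein that stabilises the mRNA of the cytokine IL6 in immune cells of mice, where the nuclease Regnase-1 (ZC3H12A) destroys it. Mice without Arid5b are lean and form fat cells poorly.

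The 13 libraries held between 45200416 and 81948641 counts. Skeletal muscle markers summed to between 255769 and 426381 CPM, counts scaled to a common library size, in insulin libraries and between 248501 and 321195 CPM in basal libraries, and all 9 markers listed for muscle were counted. The summed levels of 9 marker lists were compared between each insulin library and the basal library of its dog, in 7 such pairs. Red blood cell markers were lower in 7 of 7 pairs, at 0.766 to 2.26 CPM in insulin and 1.82 to 4.62 CPM in basal libraries. In dog 2 samples 1 and 3 the log2 differences were small, at -0.0029 and -0.090. In the other pairs they lay between -2.07 and -0.97. Lymphocyte markers were lower in 6 and neutrophil markers in 5 of 7 pairs, and those of endothelium, smooth muscle, fibroblasts, adipocytes and macrophages in 2 to 4 of 7. Fibroblast markers reached 2895 CPM in the basal library of dog 3 and lay between 228 and 1186 CPM in the other 12 libraries. The same basal library was also the highest for adipocyte markers, at 78.3 CPM against at most 42.9 CPM elsewhere, and for macrophage markers, at 43.3 CPM against at most 23.2 CPM elsewhere. No listed marker found in the table was at 0 over the 13 libraries together, while ADIPOQ, CD14, S100A9 and HBB were not matched by symbol. The part of these cells in the results below was not tested. In bulk muscle, fewer cells of a type and less RNA per cell cannot be told apart.

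ARID5B was lower in all 7 insulin libraries of dogs 2, 3 and 4 than in the basal library of the same dog. In dog 2 it stood at 8.85, 8.49 and 8.80 CPM in insulin samples 1, 2 and 3, against 78.2 CPM in its basal sample. In dog 3 it stood at 3.55 and 2.23 CPM in insulin samples 1 and 2, against 19.4 CPM in its basal sample. In dog 4 it stood at 3.85 and 4.09 CPM in insulin samples 1 and 2, against 10.1 CPM in its basal sample. The 3 insulin samples of dog 2 were close to each other, while the basal samples of the 3 dogs were far apart. Dog 1, which has no basal sample, stood at 14.9, 14.2 and 8.93 CPM under insulin. Its samples 1 and 2 were above the basal sample of dog 4, so the groups of libraries overlapped even though no pair within a dog did. Throughout, CPM were scaled by the trimmed mean of M values (TMM). The raw counts behind ARID5B ran from 120 in dog 3 sample 2 to 4982 in dog 2 sample 0, which puts the counting error between 9.13% and 1.42%.

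**Figure D1:**
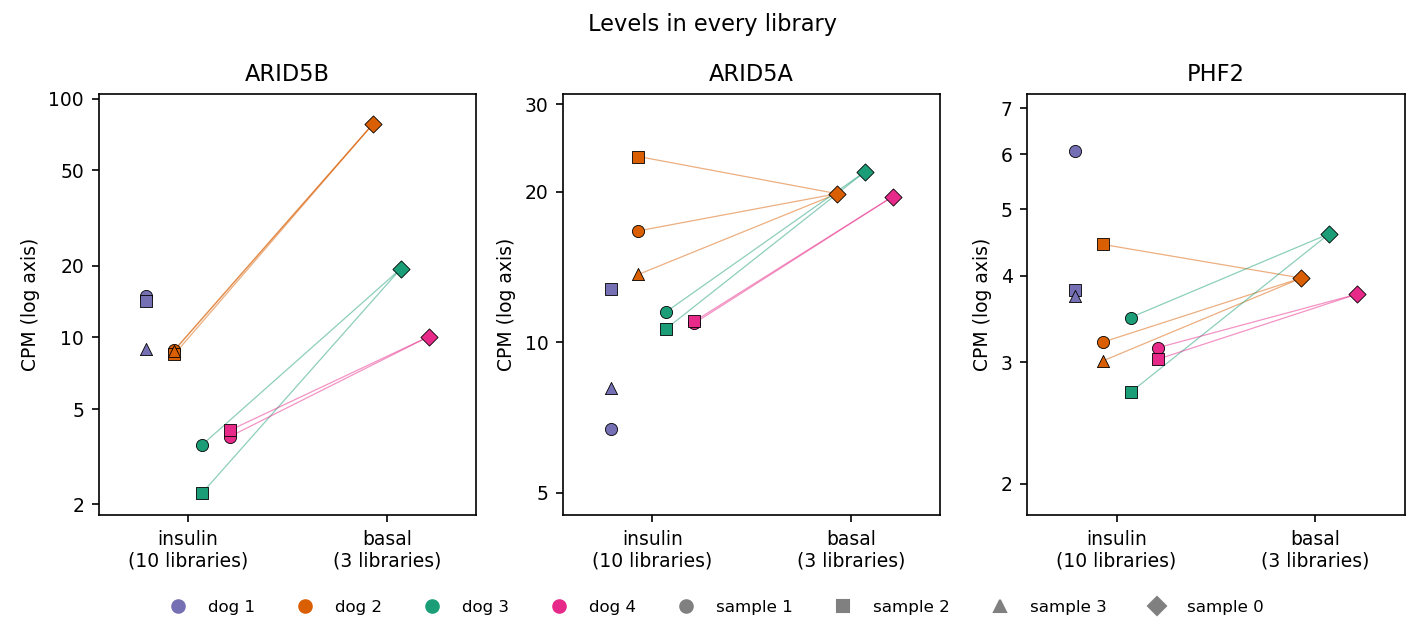
Level of each gene in every library (CPM, log axis), with the 10 insulin libraries on the left and the 3 basal libraries on the right. Colours mark dogs, shapes mark sample numbers, and thin lines join each insulin library to the basal library of its dog; in dogs 2, 3 and 4 ARID5B lies between 2.23 and 8.85 CPM under insulin and between 10.1 and 78.2 CPM at basal, and every line has its lower end on the insulin side.

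The size of the ARID5B difference was not alike in the 3 dogs. The mean log2 difference, insulin minus basal, was -3.16 in dog 2, -2.77 in dog 3 and -1.34 in dog 4, so the mean insulin level was lower than basal 8.98-fold in dog 2, 6.71-fold in dog 3 and 2.54-fold in dog 4. Insulin libraries kept 10.8% to 11.3% of the basal level in dog 2, 11.5% and 18.3% in dog 3, and 38.2% and 40.6% in dog 4. Dog 2 had the highest basal level and the largest difference, and dog 4 the lowest basal level and the smallest. With 1 basal library per dog, a difference between dogs cannot be separated from the spread of single basal libraries. Over all dogs the log2 fold change fitted by edgeR with dog as a block was -2.54 ± 0.27 (SE). It was -2.10 without the basal library of dog 2 and -2.98 without that of dog 4. ARID5B averaged 7.79 ± 4.40 CPM in insulin libraries (SD, n = 10) and 35.9 ± 36.9 CPM in basal libraries (SD, n = 3).

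ARID5A was lower in 6 of 7 insulin libraries than in its dog's basal library, by smaller amounts. In dog 2 it stood at 16.7, 23.6 and 13.7 CPM in insulin samples 1, 2 and 3, against 19.8 CPM at basal. In dog 3 it stood at 11.5 and 10.6 CPM under insulin, against 22.0 CPM at basal. In dog 4 it stood at 10.9 and 11.01 CPM under insulin, against 19.6 CPM at basal. Dogs 3 and 4 thus kept 48.5% to 56.2% of the basal level, while dog 2 sample 2 was the 1 library above its basal sample, at 119%. Dog 1 stood at 6.72, 12.8 and 8.11 CPM under insulin, all below every basal library. The basal libraries of ARID5A were close to each other, at 20.5 ± 1.30 CPM (SD, n = 3), whereas the insulin libraries averaged 12.6 ± 4.75 CPM (SD, n = 10). The fitted log2 fold change was -0.66 ± 0.23 (SE).

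PHF2, the demethylase, was the gene of the 3 that differed least. In dog 2 it stood at 3.21, 4.44 and 3.01 CPM in insulin samples 1, 2 and 3, against 3.97 CPM at basal. In dog 3 it stood at 3.48 and 2.71 CPM under insulin, against 4.604 CPM at basal. In dog 4 it stood at 3.15 and 3.03 CPM under insulin, against 3.76 CPM at basal. As with ARID5A, 6 of 7 insulin libraries were below the basal library of the dog and dog 2 sample 2 was above it. Dog 1 stood at 6.07, 3.82 and 3.74 CPM under insulin, and its sample 1 was the highest PHF2 level of all 13 libraries. PHF2 averaged 3.67 ± 0.98 CPM in insulin libraries (SD, n = 10) and 4.11 ± 0.437 CPM in basal libraries (SD, n = 3), and the fitted log2 fold change was -0.34 ± 0.23 (SE). Its raw counts were 140 to 401 per library, with a counting error of 8.45% to 4.99%.

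**Figure D2:**
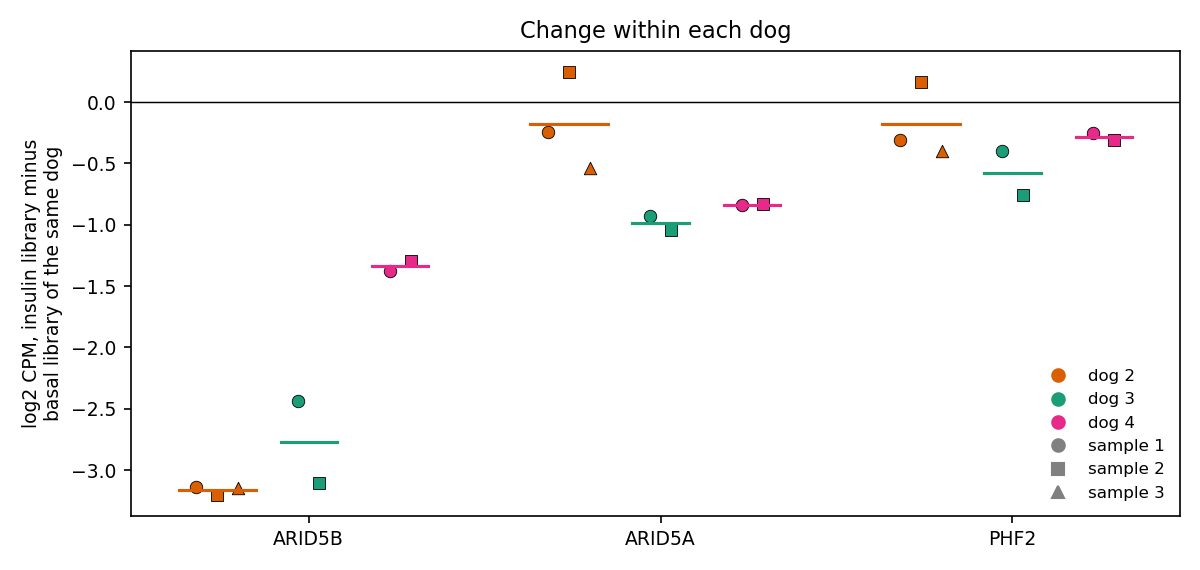
Log2 CPM of each insulin library minus that of the basal library of the same dog, for the 7 insulin libraries of dogs 2, 3 and 4; points are libraries, shapes mark sample numbers and bars mark the mean of a dog. ARID5B lies between -3.20 and -1.29, and dog 2 sample 2 is the point above 0 for both ARID5A and PHF2.

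Across all 14629 genes tested, 3.44% were below basal in 7 of 7 insulin libraries, as ARID5B was, and 11.1% in at least 6 of 7, as all 3 genes were. The edgeR quasi-likelihood test called 20 of these genes at an adjusted p under 0.05 (0.137%). Of the calls, 4 were higher (0.0273%) and 16 lower (0.109%) under insulin. The split by direction was not stable: 54 of 140 calls were higher with no filter on low counts, 46 of 103 in DESeq2 and 15 of 25 without dog 2. At an unadjusted p under 0.05 there were 603 genes (4.12%). Nothing is read from these shares, because the contrast was used to choose ARID5B. The ratio of ARID5B to ARID5A was below its basal value in 7 of 7 insulin libraries, by a median of 2.06 on the log2 scale (changes from -3.45 to -0.46). The ratio of ARID5B to PHF2 was likewise below it in 7 of 7, with changes from -3.36 to -0.98. Both ratios carry the ARID5B difference that led to its choice, so they too are a description without a test. The ratio of ARID5A to PHF2 moved less, with changes from -0.59 to 0.09.

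By sample number, each compared with sample 0 in a model of dog and sample number, ARID5B had a log2 fold change of -2.39 ± 0.33 (SE) in sample 1 and of -2.54 ± 0.33 in sample 2. ARID5A had -0.80 ± 0.25 in sample 1 and -0.45 ± 0.25 in sample 2, and PHF2 had -0.23 ± 0.26 in sample 1 and -0.37 ± 0.26 in sample 2. Both comparisons share the 3 basal libraries. For sample 1 against sample 0 edgeR called 0 genes (0%), with 438 at an unadjusted p under 0.05 (2.99%). For sample 2 against sample 0 it called 7 (0.0479%), 2 higher (0.0137%) and 5 lower (0.0342%), with 724 at an unadjusted p under 0.05 (4.95%). As above, these shares are given beside a contrast that was used in the choice.

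Comparisons among the insulin samples were not used in the choice of genes and could be tested. ARID5B in sample 2 against sample 1 had a log2 fold change of -0.15 (95% interval -0.79 to 0.49, adjusted p = 0.940, edgeR over 14629 genes). Within dogs the difference was -0.07 in dog 1, -0.06 in dog 2, -0.66 in dog 3 and 0.09 in dog 4. ARID5A had 0.35 (95% interval -0.15 to 0.84, adjusted p = 0.902 in the same edgeR fit), with 0.93 in dog 1 and 0.49 in dog 2, but -0.11 in dog 3 and 0.01 in dog 4. PHF2 had -0.15 (95% interval -0.66 to 0.37, adjusted p = 0.931 in the same edgeR fit), and was lower in 3 of 4 dogs. None of the 3 genes passed, and a p that misses the threshold does not show that the samples were alike, as the widths of these intervals show. In this comparison edgeR called 0 of 14629 genes (0%), with 495 (3.38%) at an unadjusted p under 0.05, while DESeq2 called 96.

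Sample 3 existed for dogs 1 and 2 only. Against sample 1, ARID5B in sample 3 had a log2 fold change of -0.54 (95% interval -1.38 to 0.30, adjusted p = 0.989, edgeR). Within dogs the difference was -0.74 in dog 1 and -0.01 in dog 2. PHF2 had -0.40 (95% interval -1.07 to 0.27) and ARID5A -0.12 (-0.77 to 0.53), with adjusted p of 0.989 and 0.994 by edgeR. Against sample 2, log2 fold changes in sample 3 were -0.39 for ARID5B, -0.47 for ARID5A and -0.26 for PHF2, with adjusted p of 0.988, 0.953 and 0.990 by edgeR. Here ARID5A was lower in both dogs, with differences of -0.66 in dog 1 and -0.78 in dog 2. No call was made for any gene in the comparisons of sample 3 by edgeR (0% in each), with 575 genes (3.93%) at an unadjusted p under 0.05 against sample 1 and 757 (5.17%) against sample 2. DESeq2 called 82 genes against sample 1 and 94 against sample 2. No difference between insulin samples was detectable for the 3 genes with 2 to 4 dogs.

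**Figure D3:**
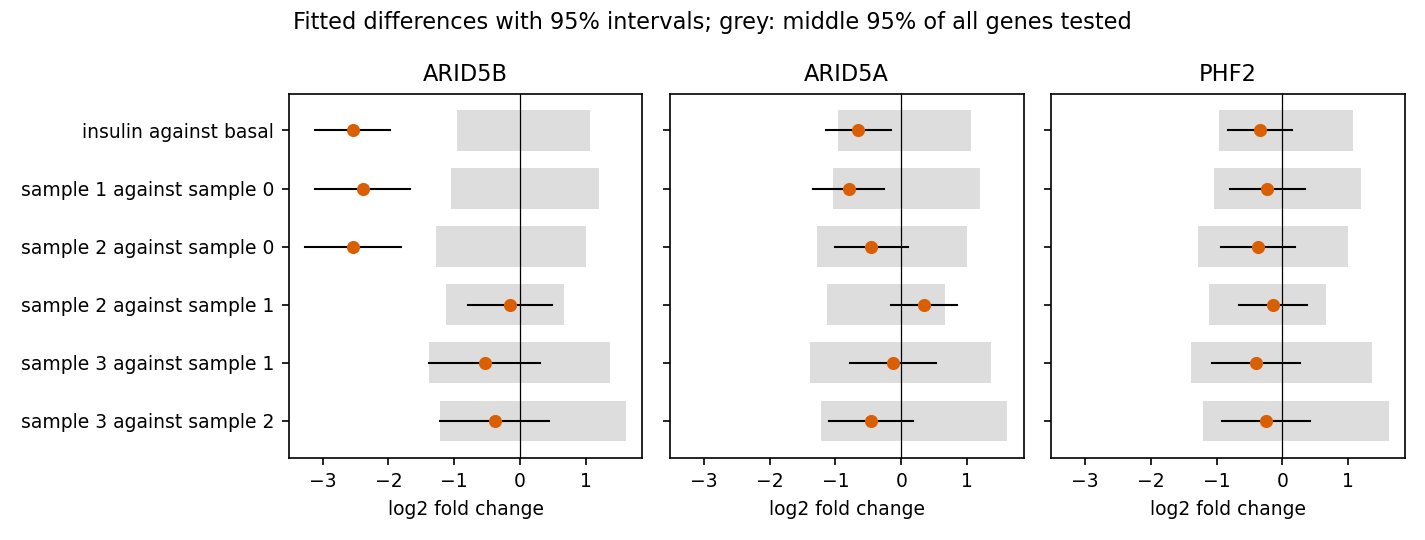
Fitted log2 fold changes of the 3 genes (points, with 95% intervals) in 6 comparisons, beside the range that holds the middle 95% of all 14629 genes (grey). The 3 comparisons with basal or sample 0 were used to choose ARID5B and share the basal libraries; among insulin samples every interval includes 0.

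In dogs 2, 3 and 4 the basal sample held the highest ARID5B level of the dog. Under insulin, dogs 1 and 2 stood above dogs 3 and 4, with means of 12.7 and 8.71 CPM in dogs 1 and 2 against 2.89 and 3.97 CPM in dogs 3 and 4. The insulin levels of dogs 1 and 2 (8.49 to 14.9 CPM) did not overlap with those of dogs 3 and 4 (2.23 to 4.09 CPM). This split was drawn after the levels were seen, and how many of all genes separated the dogs in this way was not counted. Dog 1 sample 3, at 8.93 CPM, and dog 2 sample 1, at 8.85 CPM, were neighbours that could not be told apart by counting error. The order for ARID5A under insulin was different, with dog 2 highest at a mean of 18.0 CPM, dog 3 at 11.1 CPM, dog 4 just below it and dog 1 lowest at 9.21 CPM. PHF2 means under insulin lay between 3.09 CPM in dog 4 and 4.54 CPM in dog 1. An edgeR quasi-likelihood F test of dog among the 10 insulin libraries, with sample number in the model, was added after these levels had been seen. It gave ARID5B an adjusted p of 0.0230 for a 4.39-fold span of dog means, ARID5A 0.255 for a 1.95-fold span and PHF2 0.739 for a 1.47-fold span. It called 184 of 14629 genes (1.26%), with 1575 at an unadjusted p under 0.05 (10.8%). With 1 library left out it called 33 (without dog 3 sample 2) to 439 (without dog 1 sample 2), and only without either sample 3 library did the count stay within 1.5 times of 184. The ARID5B call was lost in 6 of 10 fits that left out 1 library, which were dog 1 sample 1, dog 2 sample 1 and each insulin library of dogs 3 and 4 (adjusted p in all 10 fits between 0.0171 and 0.153 by edgeR).

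Related genes were read from 6 lists of 62 symbols, of which 58 were in the table and 50 could be tested. In insulin against basal, 0 of the 50 were higher and 0 lower at an adjusted p under 0.05, beside 0.137% of all genes, and 5 of 50 had an unadjusted p under 0.05 in the edgeR fit, beside 4.12% of all genes. No call was made on them in sample 2 against sample 1 either. The other ARID family genes had a median log2 fold change of -0.16, against -0.0013 over all genes, and 7 of 11 tested were negative. KDM5A, a demethylase of histone H3 lysine 4, was at 23.3 to 28.5 CPM in insulin libraries and at 29.8 to 38.6 CPM in basal libraries, without overlap (log2 fold change -0.32 ± 0.14 (SE), adjusted p = 1 by edgeR). ARID3B was at 2.93 to 7.76 CPM in insulin libraries and 2.75 to 4.07 CPM in basal libraries, and was higher in 7 of 7 pairs (0.67 ± 0.27, adjusted p = 1 by edgeR). How many of all genes were higher in 7 of 7 pairs was not counted. ARID1B, a subunit of the BAF remodelling complex, had -0.42 ± 0.26 and ARID4A had 0.20 ± 0.16.

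Among the relatives of PHF2 and other demethylases of histone H3 lysine 9, 7 of 8 tested were negative and the median log2 fold change was -0.21. KDM4A was at 2.26 (dog 1 sample 2) to 13.9 CPM in insulin libraries and 14.1 to 16.1 CPM in basal libraries. The next lowest insulin level was 5.44 CPM, in dog 4 sample 1. In dog 1 sample 2 the muscle actin gene ACTA1 held 18.4% of counts, the highest share of all libraries. Its part in the low level was not tested. The log2 fold change of KDM4A was -0.71 ± 0.38 (SE) and did not pass (adjusted p = 1 by edgeR). KDM3A had -0.37 ± 0.17, JMJD1C -0.29 ± 0.19 and KDM4B -0.17 ± 0.15. JMJD1C was at -0.0077 without the basal library of dog 4. The methyltransferases that place the mark had a median of -0.03 over 7 genes, with SETDB1 at -0.29 ± 0.40, EHMT1 at -0.09 ± 0.17, PRDM2 at 0.11 ± 0.35 and EHMT2 at 0.11 ± 0.37. Adjusted p by edgeR was 1 for these 7 named genes.

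The list around protein kinase A, which phosphorylates PHF2, held kinase subunits, inhibitor peptides and anchoring proteins. Its median log2 fold change was -0.04 over 10 genes tested. AKAP13, an anchoring protein of the kinase, was the related gene with the lowest p. It was at 19.99 (dog 1 sample 2) to 42.6 CPM in insulin libraries, with a median of 36.6 CPM. In basal libraries it was at 61.5 to 80.4 CPM, so the groups did not overlap. Its log2 fold change of -0.89 ± 0.18 (SE) did not pass in the edgeR fit (adjusted p = 0.110). It passed with no filter on low counts (adjusted p = 0.00194 by edgeR) and in DESeq2 (adjusted p = 0.00912). In edgeR it did not pass with insulin counts summed per dog, with no dog block, with DESeq2 size factors or without robust estimation. With 1 library or 1 dog left out it passed in 2 of 17 edgeR fits, with adjusted p from 0.00330 to 0.895. The lowest was without dog 1 sample 2. The catalytic subunits PRKACA and PRKACB had -0.27 ± 0.36 and 0.13 ± 0.23, and the inhibitor PKIG had -0.07 ± 0.19. With KDM5A and KDM4A, AKAP13 made 3 of 50 related genes with all insulin below all basal libraries, beside 0.608% of all genes tested. For KDM4A the gap was narrow, with 13.9 CPM in dog 2 sample 1 and 14.1 CPM in the basal library of dog 2. That is a log2 difference of -0.02.

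Factors and target genes tied to ARID5B and PHF2 in liver, fat and cartilage numbered 14, of which 9 could be tested in muscle. HNF4A and G6PC had 22 and 33 reads over the 13 libraries together and could not be tested, and CEBPA, ADIPOQ and BGLAP were not matched by symbol. The median log2 fold change of the 9 tested was -0.06. FABP4, a fatty acid carrier of fat cells, had -0.32 ± 0.41 (SE) and PPARG, a regulator of fat cell formation, had 0.18 ± 0.27. Of the mRNAs that ARID5A is known to stabilise, IL6 had 18 reads, TNFRSF4 1 read and TBX21 30 reads over all libraries, too few to test. STAT3, named here after its values were seen, had 52552 reads, and its fitted difference was 0.0041 ± 0.25 (SE) on the log2 scale, with an adjusted p of 1 by edgeR. ZC3H12A, the nuclease that opposes ARID5A on IL6 mRNA, was at 1.48 to 4.66 CPM in insulin libraries and 1.43 to 2.06 CPM in basal libraries. It was higher in 7 of 7 pairs, a count without its share over all genes, as for ARID3B. Its log2 fold change of 0.99 ± 0.28 (SE) did not pass in edgeR (adjusted p = 0.416) and passed in DESeq2 (adjusted p = 0.0486). RC3H1, RC3H2 and UPF1, which act on the same mRNAs, had -0.26 ± 0.19, -0.15 ± 0.29 and 0.09 ± 0.42.

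**Figure D4:**
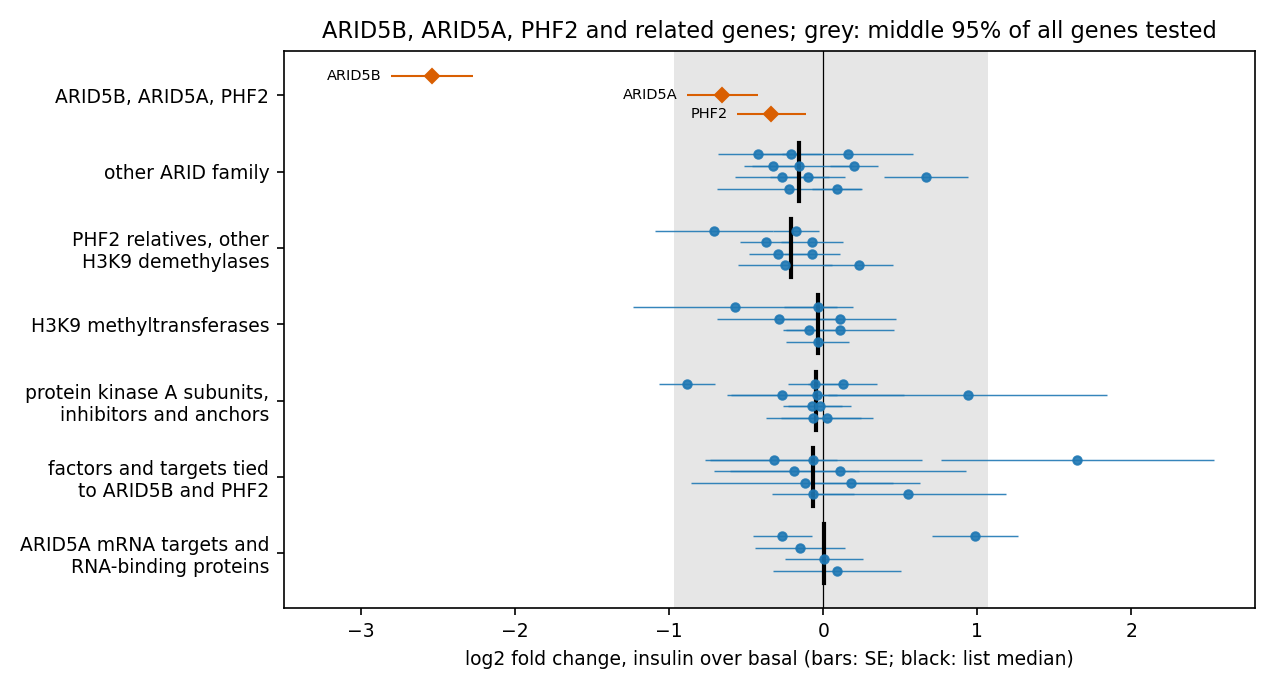
Log2 fold change of insulin over basal for the 3 genes (diamonds) and for the 50 tested genes of 6 related lists (circles), with SE bars, list medians (black) and the middle 95% of all genes tested (grey). ARID5B at -2.54 was chosen on this axis and is shown as a description; list medians lie between -0.21 and 0.0041.

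Genes with the most similar pattern were ranked by Pearson r over the 13 libraries, after the mean of each dog was subtracted from log2 CPM, among 8426 other genes with a symbol and a mean log2 CPM of at least 1. The libraries share dogs and the split of insulin from basal, so r is a description. For ARID5B they were GLUL, which makes glutamine (r = 0.944), ERRFI1, an inhibitor of the EGF receptor (r = 0.940), ZFAND5, a zinc finger protein that activates the proteasome (r = 0.930), the actin-binding protein ABRA (r = 0.897) and the kinase VRK2 (r = 0.897). Their differences between insulin and basal were smaller than that of ARID5B, with log2 fold changes of -0.50 for GLUL, -0.87 for ERRFI1, -1.20 for ZFAND5, -1.07 for ABRA and -0.41 for VRK2. VRK2 was at 0.17 with no dog block. These 5 genes were picked for following ARID5B, whose pattern holds the split of insulin from basal, so their fold changes are given without a test. For ARID5A they were EBPL (r = 0.966), the MAP kinase phosphatase DUSP1 (r = 0.911), KBTBD7 (r = 0.888), the mitochondrial uncoupling protein UCP3 (r = 0.884) and the sugar transporter SLC50A1 (r = 0.877). For PHF2 they were RERE (r = 0.878), IMPDH1 (r = 0.851), DCAF12 (r = 0.850), SLCO2B1 (r = 0.820) and GALNT17 (r = 0.818). Between the 3 genes themselves r was 0.585 for ARID5B with ARID5A, 0.583 for ARID5B with PHF2 and 0.433 for ARID5A with PHF2. Over the 10 insulin libraries alone, r was 0.112 for ARID5B with ARID5A, 0.523 for ARID5B with PHF2 and -0.0151 for ARID5A with PHF2.

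**Figure D5:**
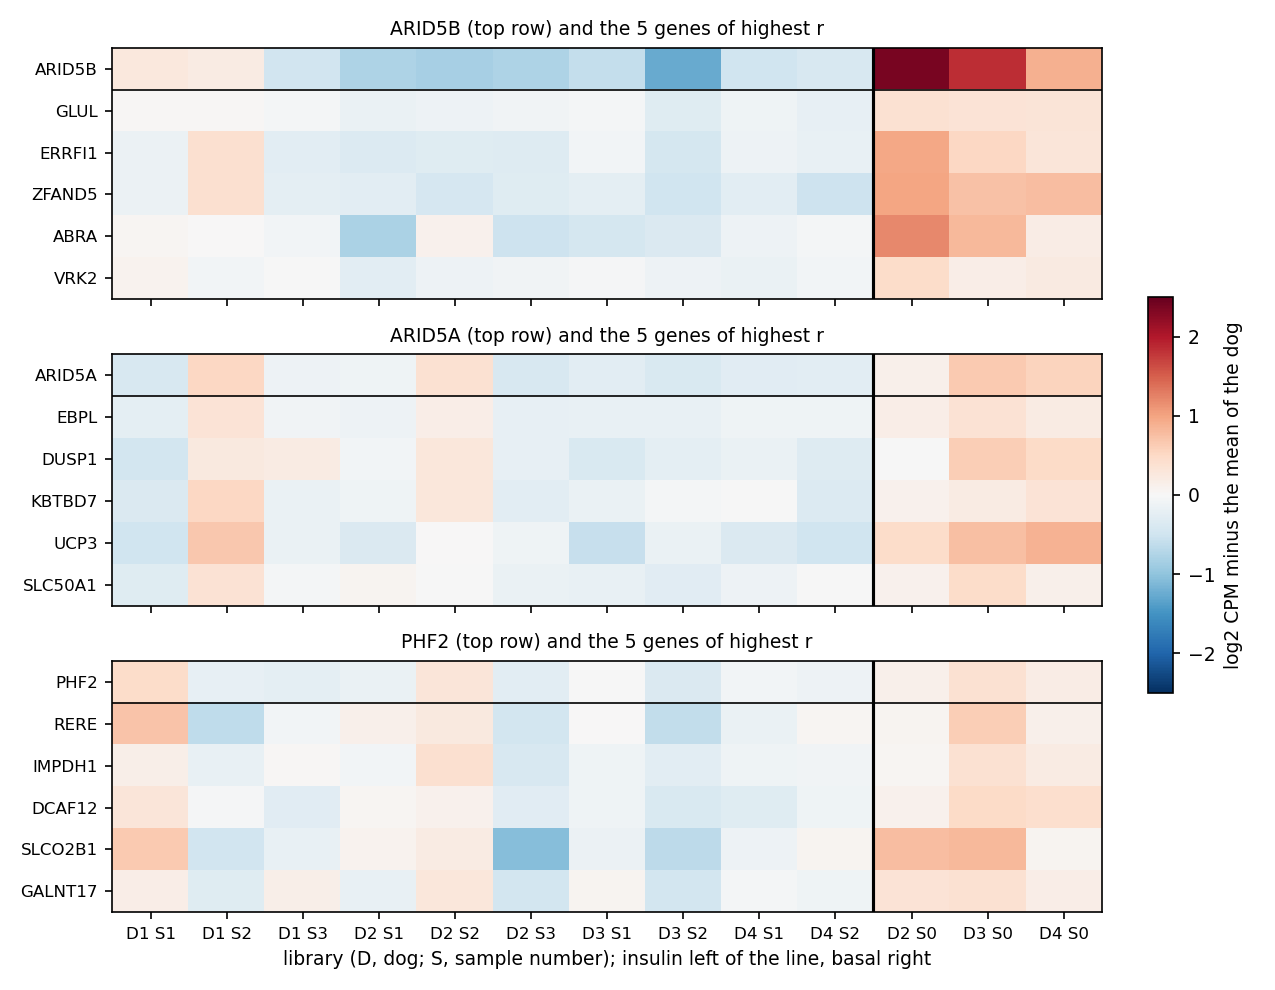
Log2 CPM minus the mean of the dog for each of the 3 genes (top row of its panel) and the 5 genes of highest r, with the 10 insulin libraries left of the line and the 3 basal libraries right of it; colour gives the value. In the ARID5B row all 3 basal libraries are above the mean of their dog, dog 2 by the most.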

How the data were processed

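Per the labels' protocols, cDNA was made from muscle RNA with a Takara SMARTseq kit and turned into libraries with Nextera XT, neither of which marks strand. The authors deposited raw read counts per gene and, beside them, a normalized signal, found here to be each count divided by 1 size factor per library. Bowtie 0.12.2 and CanFam 3.1 appear in the submitters' processing notes, with no role. The counting program, annotation and strand setting are not given in the sources used here. Groups follow the sample labels, since the series' design text names another species and tissue.

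RefSeq's annotation of UU_Cfam_GSD 1.0 places 3 long non-coding genes across ARID5B, 1 across ARID5A and 0 across PHF2, and without strand their reads cannot be told from those of the genes. That annotation was used for overlaps and neighbours only, and no sequence or coordinate is given.

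The deposited counts were tested with edgeR 4.0.16 under R 4.3.3 (filterByExpr, TMM, robust quasi-likelihood), in models of dog plus stimulation or dog plus sample number. The filter left 14629 genes, ARID5B, ARID5A and PHF2 included, and Benjamini-Hochberg adjustment ran over all of these, at 0.05. Log2 CPM used a prior count of 2. Code was tested on simulated data. Alternatives were DESeq2 1.42.0, its size factors, no filter, no dog block, other fits and prior counts, summed insulin libraries, and libraries or dogs left out.

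Dog is the block because the labels name the same animal. Deviations from group means correlated with a median r of 0.171 for 15 same-dog pairs, against -0.0658 for 47 pairs across dogs. No 2 libraries of the same dog, or of the same stimulation and sample number, agreed within sampling noise (chi-square per gene 46.6 or more). Other pairs were not compared. Several insulin libraries came from each dog, and p-values treat them as separate once dog is fitted. They measure the spread between these samples.

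Genes, lists and alternatives were chosen with earlier results of these data known. Named genes were the 3 themselves, list genes past the threshold, up to 4 per list of lowest p with a mean log2 CPM of at least 1, and the 5 of highest r for each of the 3. 1 gene that this rule named is not reported here.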

Additional observations from a re-analysis of the deposited data

Results flagged for a closer look

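Gaps at the end of a group of libraries were compared with Dixon's 95% critical value in 9 sets of levels (3 genes in insulin sample 1, in insulin sample 2 and in all insulin libraries); chance flags about 1 such set in 20. ARID5A in dog 2 sample 2, at 23.6 CPM, stood apart from the other 3 libraries of insulin sample 2, which were at 10.6 to 12.8 CPM. PHF2 in dog 1 sample 1, at 6.07 CPM, stood apart from the other 3 libraries of insulin sample 1 (3.15 to 3.48 CPM) and also from all other insulin libraries (2.71 to 4.44 CPM). No cause was tested for either, and no level of ARID5B was set apart in this way.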

How the results depend on the processing

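Insulin against basal gave 20 calls in the edgeR fit, 140 with no filter on low counts, 103 in DESeq2, 6 with no replicate block and 3 with insulin counts summed per dog. With 1 library left out it gave 7 to 28 calls, and 7 to 13 without any 1 library of dogs 3 or 4 or insulin library of dog 2; with 1 dog left out it gave 4 to 25. Calls higher under insulin numbered 4 in the edgeR fit and 0 to 15 with a library or dog left out. ARID5B had a negative fold change there in every alternative run, of -2.98 to -2.10 with 1 library left out. It was -2.20 ± 0.51 (SE) with no replicate block and -2.42 ± 0.38 (SE) with summed counts. Both SE were larger than the 0.27 of the edgeR fit with dog as a block. Among insulin samples DESeq2 called 96 genes (2 against 1), 82 (3 against 1) and 94 (3 against 2), where edgeR called 0. Several values changed sign, and not all were near 0 in the edgeR fit with dog as a block. In that fit ARID5B had -0.54 in sample 3 against 1 and -0.39 in sample 3 against 2. VRK2 had -0.41 in insulin against basal. With no replicate block ARID5B had 0.18 in sample 3 against 1 and 0.29 in sample 3 against 2, and in insulin against basal EHMT2 had -0.097, UPF1 -0.10 and VRK2 0.17. With 1 library left out, sample 2 against 1 gave ARID5B -0.43 to 0.012 (0.015 without dog 3) and PHF2 -0.33 to 0.014 (0.036 without dog 1), and sample 3 against 2 gave PHF2 -0.39 to 0.00056. PHF2 in sample 2 against 0 was -0.61 without dog 2. In insulin against basal with 1 library left out, log2 fold changes were EHMT1 -0.21 to 0.024 (0.022 without dog 2), PRDM2 -0.049 to 0.23 (-0.051 without dog 2), EHMT2 -0.094 to 0.42 (-0.095 without dog 2), RC3H2 -0.44 to 0.10 (0.10 without dog 4), UPF1 -0.050 to 0.24 (-0.0051 without dog 2), PRKACA -0.44 to 0.070 (0.067 without dog 3), PRKACB -0.027 to 0.28 (-0.028 without dog 3), FABP4 -0.96 to 0.18 (0.18 without dog 3) and PPARG -0.14 to 0.41 (-0.14 without dog 2). The adjusted p of ARID5B in the test of dogs ran from 0.0171 to 0.153. The causes were not tested. Of the 5 genes most like each gene, the 10 insulin libraries alone gave 0 again for ARID5B, 1 for ARID5A and 0 for PHF2. The lowest counts were 120 for ARID5B, 140 for PHF2 and 444 for ARID5A.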

Other observations

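The protein-coding neighbours of ARID5B in RefSeq's annotation are CABCOCO1 and RTKN2. CABCOCO1 had a log2 fold change of -0.06 ± 0.31 (SE, insulin against basal, adjusted p = 1 by edgeR), and RTKN2 did not pass the filter on low counts. Beside ARID5A, NEURL3 had 1.87 ± 0.67 (SE, adjusted p = 0.843 by edgeR) and MTA3 had 0.05 ± 0.29 (adjusted p = 1 by edgeR). Beside PHF2, FAM120A had 0.0083 ± 0.21 (adjusted p = 1 by edgeR), and BARX1 did not pass the filter.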
